A study of Mus musculus and Rattus norvegicus with 53 samples.

Results

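The 10 genes described here carry out antigen presentation by the major histocompatibility complex (MHC), and they were chosen by symbol from the 24016 mouse genes with deposited counts. The class I genes were H2-K1, H2-D1, B2m, Tap1 and Psmb8, and the class II genes were Cd74, H2-Aa, H2-Ab1, H2-Eb1 and Ciita. All 10 had counts in both experiments on sorted mouse Schwann cells (SCs), and all 10 passed the filter on low counts in both. The cells came from male and female tdTom SC mice, 6 to 8 weeks old, in which a Cre transgene active in the SC lineage switches on a Rosa26 tdTomato reporter. After transection of a sciatic nerve, tdTomato+ cells were sorted from the uninjured nerve (iSCs), from the distal stump (dSCs) and from the tissue bridge that forms between the stumps (bSCs), with a gate set on Cre-negative cells. In the pooled experiment each of the 3 regions had 4 libraries, collected at day 6, with nerves of 3 mice in each library. In the time course each library came from 1 nerve, with 5 libraries of iSCs. Distal stumps were sampled at 6 times (days 1 and 2, then every other day from 4 to 10) and bridges, most of them from the same nerves, at the later 4 of them, with 3 libraries for each time and region. All these animals carried the same reporter, and because recombination does not reach every SC, the sort samples the recombined cells.

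Class I molecules sit on nearly every nucleated cell and show peptides made inside it to cytotoxic T cells. H2-K1 and H2-D1 encode their heavy chains, B2m the shared light chain β2-microglobulin, Tap1 a subunit of the transporter that carries peptides into the endoplasmic reticulum, and Psmb8 a catalytic subunit of the immunoproteasome that cuts them. Class II molecules are found mainly on professional antigen-presenting cells such as macrophages, dendritic cells and B cells, and show peptides from engulfed material to helper T cells. H2-Aa and H2-Ab1 encode the α and β chains of I-A, H2-Eb1 the β chain of I-E, Cd74 the invariant chain that blocks their groove until they reach the endosome, and Ciita the coactivator on which class II transcription depends. Both classes are inducible by interferon gamma, and SCs can be made to carry class II under inflammatory conditions.

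In the annotation of build NCBIM37, which the authors' alignments used as mm9, 7 of the members lie within the MHC on chromosome 17. These are H2-K1 (34132962 to 34137278, minus strand), Tap1 (34324498 to 34334170, plus strand), Psmb8 (34334666 to 34338399, plus strand), H2-Ab1 (34400154 to 34406363, plus strand), H2-Aa (34406276 to 34424772, minus strand), H2-Eb1 (34442828 to 34453144, plus strand) and H2-D1 (35399675 to 35404444, plus strand). B2m lies on chromosome 2 (121973422 to 121978819, plus strand) and Ciita on chromosome 16 (10480237 to 10527657, plus strand), and Cd74 also lies outside the MHC. H2-Aa and H2-Ab1 overlap at their ends on opposite strands, and the Smart-seq2 libraries do not mark strand, so reads from the overlap cannot be told apart. Among windows of 50 bases, 7.29% of those of H2-K1 and 12.8% of those of H2-D1 also occur in another gene's transcripts, as do 6.27% of those of Tap1 and 5.73% of those of Psmb8, so their counts are less certain than those of B2m, Cd74, H2-Aa, H2-Ab1, H2-Eb1 and Ciita, which share 0% of their windows.

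The promoters are shown because members of each class share control elements with letters that can be searched. The 140 bases before the start of transcription are printed from RefSeq on build GRCm38.p6 for the 7 members with an entry, with every CCAAT (read on either strand, as CCAAT or ATTGG) and GAAANNGAA in capitals. CCAAT is the core of the Y box bound by NF-Y, and GAAANNGAA the core of the interferon-stimulated response element. H2-Ab1, Cd74 and Ciita are named only.
B2m (chr2:122147547-122147686, plus strand): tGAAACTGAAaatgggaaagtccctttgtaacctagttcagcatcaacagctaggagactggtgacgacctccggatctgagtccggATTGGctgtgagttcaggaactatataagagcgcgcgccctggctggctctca
H2-K1 (chr17:34000348-34000487, minus strand): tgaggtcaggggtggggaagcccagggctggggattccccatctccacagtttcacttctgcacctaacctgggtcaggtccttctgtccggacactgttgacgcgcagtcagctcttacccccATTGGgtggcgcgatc
H2-D1 (chr17:35262954-35263093, plus strand): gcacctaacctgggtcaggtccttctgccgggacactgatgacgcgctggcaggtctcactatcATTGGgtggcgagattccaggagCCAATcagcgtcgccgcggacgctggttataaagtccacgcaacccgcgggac
Tap1 (chr17:34187416-34187555, plus strand): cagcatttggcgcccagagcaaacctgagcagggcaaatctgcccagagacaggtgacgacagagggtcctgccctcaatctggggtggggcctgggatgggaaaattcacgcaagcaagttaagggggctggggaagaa
Psmb8 (chr17:34198055-34198194, plus strand): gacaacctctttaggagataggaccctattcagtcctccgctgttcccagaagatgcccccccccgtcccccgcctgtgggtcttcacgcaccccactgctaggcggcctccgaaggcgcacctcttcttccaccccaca
H2-Aa (chr17:34287824-34287963, minus strand): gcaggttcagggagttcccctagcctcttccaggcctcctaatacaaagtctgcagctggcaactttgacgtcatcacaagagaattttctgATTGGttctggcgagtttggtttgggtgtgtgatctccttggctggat
H2-Eb1 (chr17:34305727-34305866, plus strand): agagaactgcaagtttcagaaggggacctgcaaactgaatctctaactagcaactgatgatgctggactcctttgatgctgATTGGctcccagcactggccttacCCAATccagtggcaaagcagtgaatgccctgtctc
Within 250 bases before the start, 6 of the 7 promoters held a CCAAT on either strand, against 37.5% of the 27025 genes with a window. Psmb8 was the one without it, and the single match of Tap1 began 222 bases before the start, outside the printed stretch. H2-D1 and H2-Eb1 each held 2. GAAANNGAA was found in B2m alone, 139 bases before the start, against 8.18% of all windows. TTCNNNGAA, the gamma-activated site, was found in Psmb8 alone, 97 bases before the start, against 8.13% of all windows. The class II X box core, searched as CCTAGCAAC on both strands, was in 0 of the 7 windows and in 0.818% of all windows. H2-Aa and H2-Eb1 were the only class II genes with a window. Only exact matches were counted, so a miss does not show that a promoter lacks the box. The printed H2-Eb1 stretch holds actagcaac, which differs from the searched string in its first letter. A match describes letters only, and these counts were not tested.

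Levels are given as CPM, each gene's counts relative to all counts on genes of its library (the usual per-million scale), with library sizes scaled by TMM factors. The pooled libraries held 11435463 to 22617054 counts on genes and the single-nerve libraries 9240883 to 22426128. Markers fitting the label were present, since the Schwann genes Sox10, S100b, Mbp, Erbb3 and Ngfr had counts in each group. All 14 macrophage markers listed also had counts in each group, and 2 sets of libraries stood apart. Pooled iSC replicate 5 had a macrophage marker sum of 6509.9 CPM against 269.8 to 1603 in the other 3, and the highest fibroblast sum of those 4 (47682 CPM). Among the single nerves, 4 libraries (iSC replicates 0 and 1, day 1 dSC replicate 1 and day 2 dSC replicate 0) had counts on 10042 to 11138 genes, against 11983 to 15815 in the other 31. Results that rest on these libraries are given with and without them. Both sets were singled out from these same data. In sorted bulk RNA, fewer cells of a type and less RNA per cell cannot be told apart, and this holds for every difference below.

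B2m was the most abundant of the 10 members in every group when levels were divided by exon length. In pooled nerves its mean was 1609 CPM per kb in iSCs, 2389 in dSCs and 2243 in bSCs. Cd74 came next in all 3 pooled regions, at 595, 1087 and 499 CPM per kb, followed by H2-Ab1 and H2-D1. In single-nerve iSCs, Cd74 had rank 4 at 186 CPM per kb, behind B2m (1618), H2-D1 (291) and H2-K1 (270.5), whereas at days 4 to 10 it stood second in dSCs (1266) and in bSCs (953). Tap1 and Ciita were the lowest in all 7 sets, with means of 5.79 to 15.7 CPM per kb for Tap1 and 0.00492 to 1.73 for Ciita. The ranks of the other 6 genes were the same in the 3 pooled regions and changed between the single-nerve sets.

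The first question was whether SCs of the injured nerve at day 6 differed from iSCs in these genes. For the class II genes, 3 of the 4 pooled iSC libraries were low and 1 was high, and the dSC libraries lay between them. Cd74 was at 93.3, 75.7, 344 and 2843 CPM in iSC replicates 1, 2, 4 and 5, at 897, 1658, 2268 and 1310.2 in dSC replicates 1, 2, 3 and 5 and at 376, 1014, 1107 and 318 in bSCs of the same numbers. Every dSC value was above 3 of the iSC values and below replicate 5, so the groups overlapped. H2-Ab1 was at 60.8, 48.2, 119.6 and 1319.6 CPM in iSCs, 552, 754, 921 and 459 in dSCs and 149, 626, 530.0 and 172 in bSCs. H2-Aa was at 38.1, 20.8, 46.3 and 667 CPM in iSCs, 295, 551, 520.1 and 414 in dSCs and 96.5, 373, 386 and 103 in bSCs. H2-Eb1 was at 20.041, 17.4, 37.8 and 493.06 CPM in iSCs, 168, 323, 367 and 286 in dSCs and 92.9, 297, 287 and 69.1 in bSCs. In these 4 genes alike, iSC replicate 5 was the highest library of all 12.

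**Figure D1:**
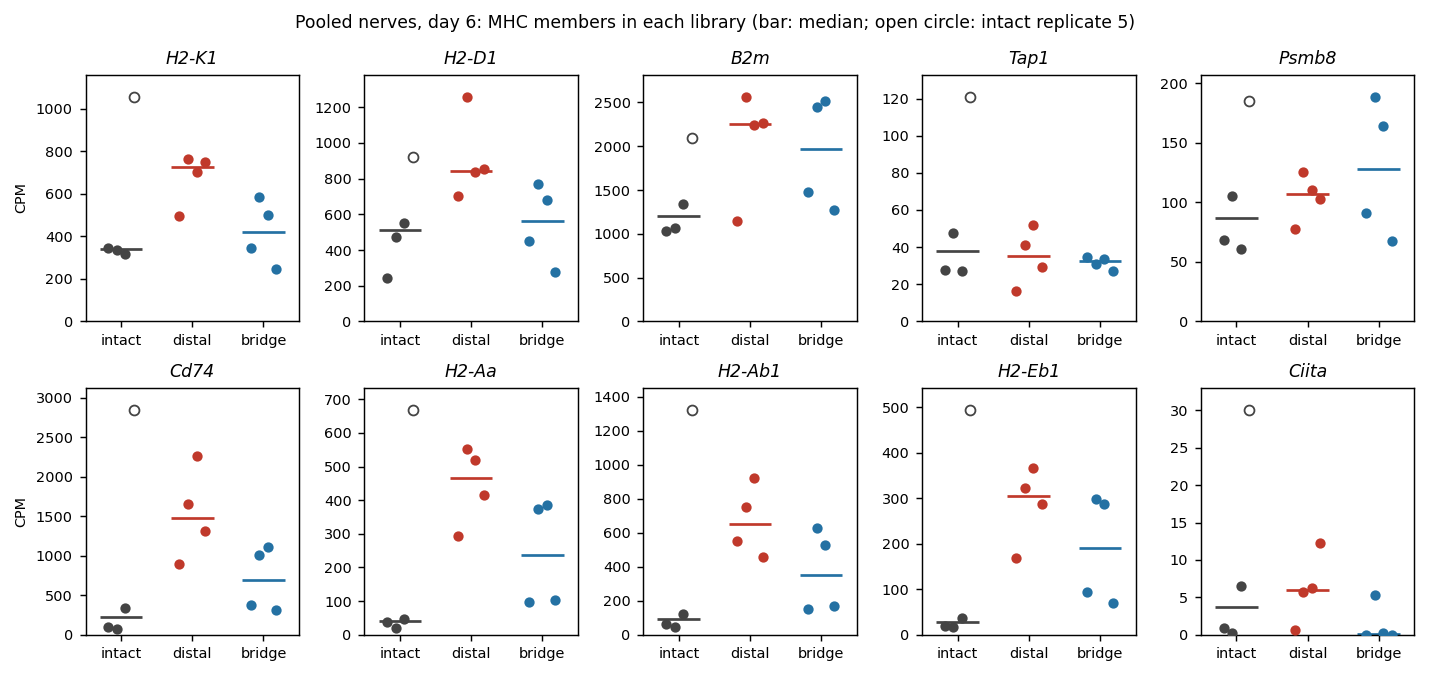
Level (CPM, y axis) of each of the 10 members in every pooled-nerve library of day 6, by region, with a bar at the median of 4 libraries and an open circle for iSC replicate 5. Cd74, H2-Aa, H2-Ab1 and H2-Eb1 have their highest value in that library, while the other 3 iSC libraries lie below all 4 dSC libraries.

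With all 12 libraries, edgeR's quasi-likelihood test with Benjamini-Hochberg adjustment called 0 of the 10 members between dSCs and iSCs, where 2.63% of the 13751 genes tested were called higher and 2.69% lower. None of the 10 had an unadjusted p under 0.05, and DESeq2 called 0 as well. The log2 difference of dSCs from iSCs was 0.87 (SE 0.91, adjusted p = 0.774) for Cd74 and 1.21 (SE 0.91, adjusted p = 0.626) for H2-Aa. Without iSC replicate 5, 4 members were called higher in dSCs, against 4.22% of 14164 genes called higher and 2.89% lower. These were Cd74 at 3.19 (SE 0.65, adjusted p = 0.0114), H2-Aa at 3.70 (SE 0.58, adjusted p = 0.00281), H2-Ab1 at 3.17 (SE 0.58, adjusted p = 0.0057) and H2-Eb1 at 3.54 (SE 0.58, adjusted p = 0.00344), by the same edgeR quasi-likelihood test. The median log2 difference over the 10 members moved from 0.65 to 1.24, beside -0.02 and 0.01 over all genes. Leaving out any other iSC or dSC library left the count at 0. Replicate 5 was the highest library for these 4 genes, so leaving it out favours calls of a rise. The p-values without it describe dependence on that library and are not independent support.

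Ciita, on which transcription of the class II genes depends, was low throughout. Its level was 0.858, 0.203, 6.51 and 30.004 CPM in the pooled iSC libraries, 0.689, 5.72, 6.28 and 12.3 in dSCs and 0, 5.34, 0.172 and 0 in bSCs. The highest iSC value was again that of replicate 5, and 2 of the 4 bSC libraries had no count. Its adjusted p was 0.944 between dSCs and iSCs in pooled nerves and 0.405 when bSCs took the place of dSCs (edgeR's quasi-likelihood test).

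The class I genes of the pooled nerves overlapped between the regions. H2-K1 was at 345, 336, 316 and 1055 CPM in iSCs, 498, 763, 702 and 749.8 in dSCs and 345, 585, 500.1 and 244 in bSCs. H2-D1 was at 246, 473, 549 and 921 CPM in iSCs, 700.5, 1257, 838 and 851 in dSCs and 448, 768, 681 and 279.5 in bSCs. For both heavy chains the dSC libraries lay above the iSC libraries except replicate 5, which was within or above them. B2m was at 1035, 1063, 1344 and 2094 CPM in iSCs, 1148, 2563, 2247 and 2261 in dSCs and 1479, 2451, 2517 and 1267 in bSCs, with 1 dSC library among the 3 lower iSC libraries. Tap1 stayed between 16.1 and 52.0 CPM in dSCs and between 27.2 and 34.7 CPM in bSCs, and among iSCs it was at 27.8, 47.7, 27.1 and 121 CPM. Psmb8 was between 77.8 and 125.6 CPM in dSCs, between 67.4 and 188.5 CPM in bSCs and between 61.1 and 184.9 CPM in iSCs. The log2 differences of dSCs from iSCs were 0.74 (SE 0.39, adjusted p = 0.404) for H2-D1, 0.57 (SE 0.34, adjusted p = 0.475) for B2m and 0.40 (SE 0.40, adjusted p = 0.758) for H2-K1 in edgeR's quasi-likelihood test. Without iSC replicate 5 they were 1.14 (SE 0.39, adjusted p = 0.11), 0.87 (SE 0.34, adjusted p = 0.17) and 1.06 (SE 0.30, adjusted p = 0.0553) in the same test, so no class I gene was called either way.

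The bSCs of the pooled nerves were compared with iSCs and with dSCs to see how cells sorted from the bridge differ in these genes. Against iSCs, 0 of 10 members were called, where 7.24% of genes were called higher and 7.46% lower, and 0 of 10 had an unadjusted p under 0.05. DESeq2 called 0 as well. With all 12 libraries the log2 difference of bSCs from iSCs was -0.25 (SE 0.91, adjusted p = 0.897) for Cd74, -0.07 (SE 0.88, adjusted p = 0.972) for H2-Ab1, 0.31 (SE 0.90, adjusted p = 0.871) for H2-Aa and 0.39 (SE 0.90, adjusted p = 0.836) for H2-Eb1 in edgeR's quasi-likelihood test. Without iSC replicate 5, the same 4 class II genes as in dSCs were called higher in bSCs (7.94% of genes higher, 6.76% lower), with log2 differences of 2.93 (SE 0.56, adjusted p = 0.0049) for H2-Eb1, 2.80 (SE 0.55, adjusted p = 0.00569) for H2-Aa, 2.31 (SE 0.55, adjusted p = 0.0152) for H2-Ab1 and 2.07 (SE 0.62, adjusted p = 0.0423) for Cd74 by edgeR's quasi-likelihood test. The 2 comparisons share their iSC libraries. Leaving out replicate 5, the highest library for these 4 genes, favours such calls here too. Between bSCs and dSCs, where the iSC libraries play no part in the difference, 0 of 10 members were called by edgeR and 0 by DESeq2, with 0 of 10 at an unadjusted p under 0.05, and 2.31% of all genes were called higher and 3.11% lower. The log2 difference of bSCs from dSCs was below 0 for 9 of the 10 members, with -1.12 for Cd74 and -0.09 for B2m, and was 0.29 for Psmb8. Its median was -0.72, beside -0.07 over all genes. Blocking on the pool number (replicate block) left the count of members at 0 in all 3 pooled comparisons, while the genes called fell in number from 732 to 287 for dSCs against iSCs, from 2022 to 968 for bSCs against iSCs and from 746 to 236 for bSCs against dSCs.

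Macrophage transcripts also differed between these libraries. The summed level of the 14 macrophage markers was 477, 269.8, 1603 and 6509.9 CPM in the pooled iSC libraries, 6073, 8679, 4355 and 2686 CPM in bSCs and 11047, 18382, 14094 and 14562 CPM in dSCs. The iSC library with the most Cd74, replicate 5, also had the highest sum of its group. In dSCs 3 of the 14 markers were called higher than in iSCs, and in bSCs 0 of 14. With iSC replicate 5 left out, 13 of 14 were called higher in dSCs and 11 of 14 in bSCs. The shares of all genes called higher were then 4.22% and 7.94%. Cd74 was equal to 8.12% to 16.1% of the macrophage sum in dSCs, 6.19% to 25.4% in bSCs and 19.6% to 43.7% in iSCs. Markers of other antigen-presenting cells were low, with dendritic cell markers summing to at most 80.2 CPM in any pooled library, and B cell markers to at most 16.6 CPM. Of the 4 dendritic cell markers tested, 1 was called higher than in iSCs in dSCs and 1 in bSCs. The shares of all genes called higher were 2.63% and 7.24%. With iSC replicate 5 left out, 0 of 5 tested were called in either region. The 5 T cell markers summed to 5.202 to 21.2 CPM in dSCs, at most 0.78 CPM in iSCs and 0 in all 4 bSC libraries. The 1 of them that was tested was called lower in bSCs than in dSCs, as were 3.11% of all genes. Fibroblast markers, all 6 with counts in each region, summed to 8662 to 47682 CPM in iSCs, 28666 to 41422 CPM in dSCs and 13032 to 26332 CPM in bSCs, where 2 of 6 were called lower than in iSCs and 2 lower than in dSCs. With iSC replicate 5 left out, 1 was called lower and 1 higher in bSCs than in iSCs. Endothelial markers summed to 124 to 565 CPM, 111 to 243 CPM and 143 to 700.1 CPM in the same order. The part of T cell, fibroblast and endothelial RNA in these differences was not tested. The share of the class II differences that macrophage RNA in the sort accounts for was not tested.

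**Figure D2:**
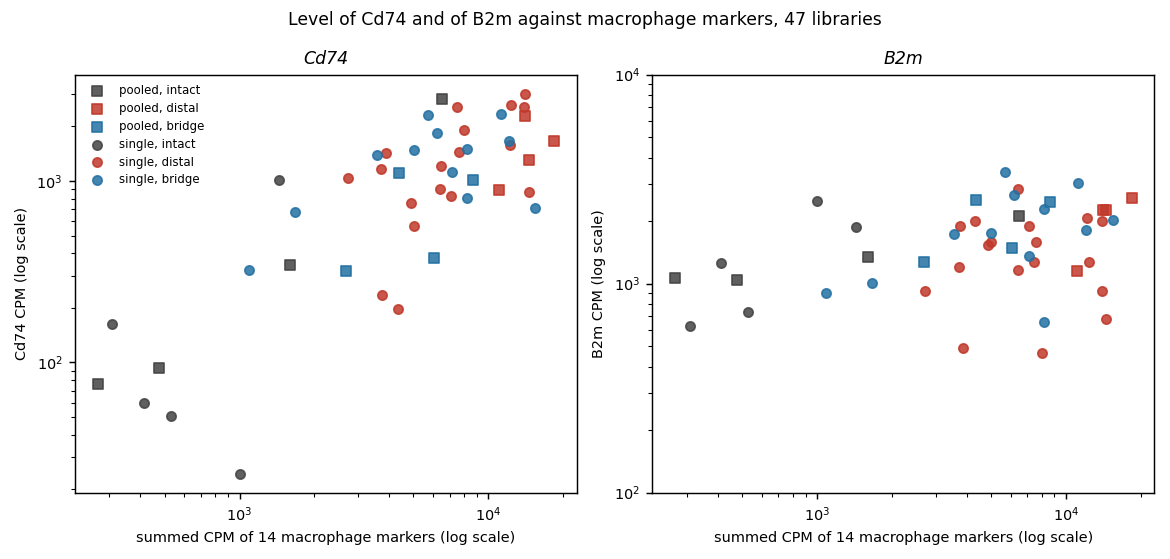
Level of Cd74 and of B2m (CPM, y axis, log scale) against the summed CPM of 14 macrophage markers (x axis, log scale) in all 47 mouse libraries, by region. Of the 9 iSC libraries 8 lie at or below 1603 CPM on the marker axis and the other, pooled replicate 5, lies at 6509.9 CPM, and the plot is a description with no test.

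The time course asked when after transection these genes change, in dSCs and bSCs of single nerves. At days 4 to 10 the class II genes stood above most iSC libraries in both regions. In iSCs, Cd74 was at 50.8, 24.4, 164, 59.4 and 1011 CPM in replicates 0, 1, 3, 4 and 5. In dSCs it was at 873, 1587 and 2539 CPM at day 4, 2635, 3031 and 1033 at day 6, 1206, 1156 and 1902 at day 8 and 1433, 2570.4 and 1449.7 at day 10. In bSCs it was at 712, 1653 and 807 CPM at day 4, 1489, 1491 and 324 at day 6, 1382, 2318 and 1125 at day 8 and 671, 1829 and 2330.0 at day 10. Of the 12 dSC libraries 11 were above every iSC library, and of the 12 bSC libraries 8 were, the highest iSC library being replicate 5. H2-Ab1 was at 194, 380.0, 88.4, 28.003 and 581 CPM in iSCs, and ranged over 516 to 1775 CPM (median 1068, n = 12) in dSCs and 194 to 1422 CPM (median 826, n = 12) in bSCs. H2-Eb1 was at 39.6, 64.2, 25.1, 16.8 and 184 CPM in iSCs, 12.1 to 849 CPM (median 434, n = 12) in dSCs and 9.36 to 766 CPM (median 238, n = 12) in bSCs. Libraries above every iSC library numbered 10 of 12 dSCs and 8 of 12 bSCs for H2-Ab1, and 9 and 8 for H2-Eb1. H2-Aa was at 135, 546, 26.7, 16.8 and 253 CPM in iSCs, 164 to 1136 CPM (median 481, n = 12) in dSCs and 92.5 to 846 CPM (median 405, n = 12) in bSCs. Here 5 dSC and 4 bSC libraries exceeded every iSC library, the highest of which was replicate 1, one of the libraries with few genes.

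**Figure D3:**
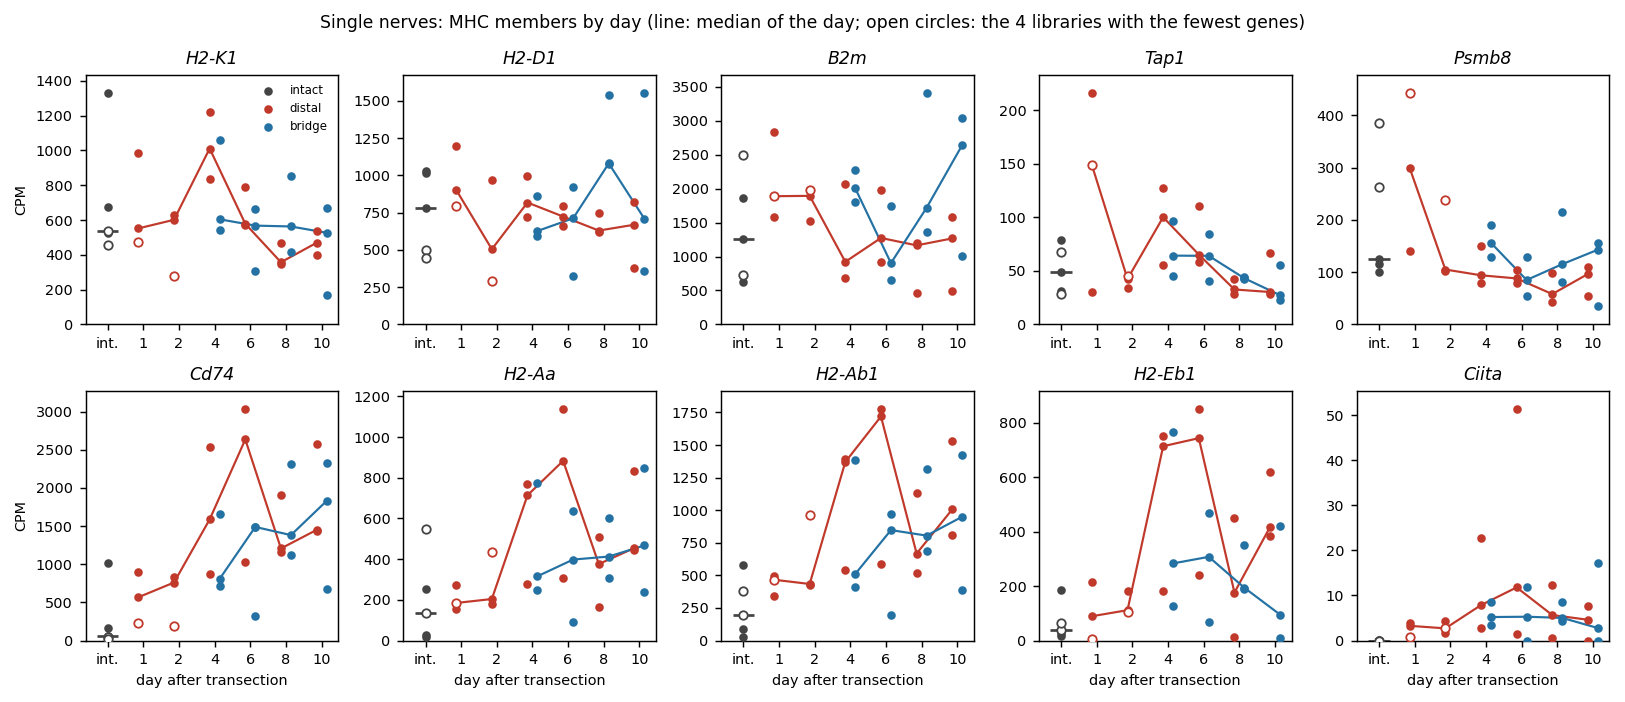
Level (CPM, y axis) of each member in every single-nerve library by day after transection (x axis), with iSCs at the left, a line through the median of 3 libraries per day in dSCs and bSCs, and open circles for the 4 libraries with the fewest genes. The median of Cd74 in dSCs passes from 567 CPM at day 1 to 2635 CPM at day 6, against a median of 59.4 CPM in 5 iSC libraries, and open circles hold 4 of the 5 highest values of Psmb8.

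In dSCs of days 4 to 10, edgeR's quasi-likelihood test with Benjamini-Hochberg adjustment called 5 of the 10 members against iSCs, 4 higher and 1 lower, where 1.84% of the 15519 genes tested were called higher and 3.49% lower. Cd74 rose by a log2 difference of 2.75 (SE 0.66, adjusted p = 0.0137), which is 6.72-fold, in the edgeR fit. H2-Ab1 rose by 2.07 (SE 0.52, adjusted p = 0.0195) and H2-Eb1 by 2.70 (SE 0.82, adjusted p = 0.0487) on the same scale. H2-Aa differed by 1.49 (SE 0.58, adjusted p = 0.122) and passed in DESeq2 only (adjusted p = 0.0491). DESeq2 called 6 members, the 5 of edgeR and H2-Aa. Leaving out each of the 17 libraries in turn, Cd74, H2-Ab1 and Ciita were called every time, and H2-Eb1 was lost in 13 of the 17 fits. In the fit without iSC replicate 5, the iSC library with the most Cd74, the differences were 4.58 for Cd74, 2.67 for H2-Ab1 and 3.60 for H2-Eb1, and these were the highest of the 17. Without the 4 libraries of few genes, which leaves 3 iSC libraries, 1 of 10 members was called, against 1.42% of genes called higher and 1.79% lower. That member was H2-Aa at 2.54 (SE 0.71, adjusted p = 0.0471) in the edgeR test, and the others had values of 2.15 (SE 0.63, adjusted p = 0.0575) for Cd74, 2.26 (SE 0.67, adjusted p = 0.061) for H2-Ab1 and 2.57 (SE 0.98, adjusted p = 0.15) for H2-Eb1, with 5 of the 10 members at an unadjusted p under 0.05. The median log2 difference of the members was 0.83 with all libraries and 1.15 without these 4, beside -0.08 and -0.01 over all genes.

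In bSCs of days 4 to 10, 3 of the 10 members were called higher than in iSCs and 0 lower, where 2.58% of genes were called higher and 6.75% lower. Cd74 rose by 2.33 (SE 0.64, adjusted p = 0.0208) and H2-Ab1 by 1.68 (SE 0.51, adjusted p = 0.0356) on the log2 scale in edgeR's quasi-likelihood test, and the third was Ciita. H2-Eb1 differed by 1.99 (SE 0.78, adjusted p = 0.105) and H2-Aa by 1.18 (SE 0.56, adjusted p = 0.199) in the same test. DESeq2 called 4, adding H2-Eb1 (adjusted p = 0.0369). Without the 4 libraries of few genes 0 members were called by edgeR, with 4 of 10 at an unadjusted p under 0.05 and 2.46% of all genes called higher, and the values were 2.20 (SE 0.70, adjusted p = 0.051) for H2-Aa and 1.72 (SE 0.61, adjusted p = 0.0806) for Cd74. Cd74 lost its call without single-nerve iSC replicate 0 or 4, and H2-Ab1 lost it in 6 of the 17 fits that left out a library. Without iSC replicate 5 the difference of Cd74 was 4.14. These bSC values share the iSC libraries with those of dSCs.

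Ciita was almost absent from single-nerve iSCs, where 4 of 5 libraries had no count and replicate 4 had 3 counts, or 0.153 CPM. In dSCs of days 1 and 2 the 6 libraries had 0.748 to 4.2992 CPM (median 2.98, n = 6), all above every iSC library. At days 4 to 10 the range was 0 to 51.3 CPM (median 6.70, n = 12) in dSCs and 0 to 17.3 CPM (median 5.12, n = 12) in bSCs, with no count in 1 and 2 libraries. The highest were a dSC library of day 6 at 51.3 CPM and a bSC library of day 10 at 17.3 CPM. The ratio of summed counts over summed library sizes was 67.5 for days 1 and 2 (exact 95% interval 22.8 to 329), 270.0 for dSCs of days 4 to 10 (92.3 to 1310.4) and 130.5 for bSCs (44.5 to 634). These intervals cover counting error only, and reads amplified by PCR are not independent molecules. The adjusted p of edgeR's quasi-likelihood test was 0.128 at days 1 and 2, 0.0127 in later dSCs and 0.0122 in bSCs, and 0.416, 0.0692 and 0.0562 without the 4 libraries of few genes. DESeq2 called it at days 1 and 2 (adjusted p = 0.00174). In pooled iSCs Ciita ranged from 0.203 to 30.004 CPM.

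At days 1 and 2 the class II chains of dSCs lay above the iSC median in nearly every library without passing the test. Cd74 was at 567, 234 and 901 CPM at day 1 and 197, 760.2 and 826 at day 2, above the iSC median in 6 of 6 libraries and above iSC replicate 5 in 0 of 6. H2-Ab1 was at 341, 467 and 491 CPM at day 1 and 965, 424 and 434 at day 2. edgeR's quasi-likelihood test called 0 of 10 members against iSCs, where 0.477% of genes were called higher and 0.2% lower, and 1 of 10 (Ciita) had an unadjusted p under 0.05. DESeq2 called 1, also Ciita. Cd74 differed by 1.15 (SE 0.66, adjusted p = 0.601) and H2-Ab1 by 1.01 (SE 0.54, adjusted p = 0.555) on the log2 scale. Without iSC replicate 5, the iSC library with the most Cd74, Cd74 alone was called, at 2.97 (adjusted p = 0.0163 in edgeR). Leaving out that library favours such a call. Without the 4 libraries of few genes 0 of 10 were called, with 1 of 10 at an unadjusted p under 0.05, where 0.206% of genes were called higher and 0.0125% lower. Macrophage markers were higher at this time too, as 7 of the 14 were called higher at days 1 and 2, with sums of 3743 to 7084 CPM against 308 to 1434 CPM in iSCs. With the 4 libraries of few genes left out, 3 of the 14 were called higher.

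At days 4 to 10, 12 of the 14 macrophage markers were called higher than in iSCs in dSCs and 12 in bSCs, with sums of 2716 to 14556 CPM and 1091 to 15417 CPM. With the 4 libraries of few genes left out, 12 were called higher in dSCs and 11 in bSCs. Cd74 was equal to a median of 14.4% of the macrophage sum in iSCs, 11.5% in dSCs of days 1 and 2, 21.5% in dSCs of days 4 to 10 and 25.1% in bSCs. The range within dSCs of days 4 to 10 was 6.00% to 38.1%, so the groups overlapped. Dendritic cell markers summed to at most 61.6 CPM in any single-nerve library, and B cell markers to at most 45.0 CPM, in a bSC library. Of 7 dendritic cell markers tested 0 were called. Of 2 B cell markers tested, 1 was called higher than in iSCs in dSCs of days 4 to 10. In bSCs 1 was higher and 1 lower. These counts were the same without the 4 libraries of few genes. Shares of all genes called higher were 1.84% in dSCs and 2.58% in bSCs, where 6.75% were lower. Endothelial markers, all 6 with counts in each set, summed to 1339 to 3433 CPM in iSCs, 429.5 to 1041 CPM in dSCs of days 1 and 2, 220.2 to 1424 CPM in later dSCs and 216 to 2532 CPM in bSCs. Of these 6 markers 1 was called lower than in iSCs in each of the 3 sets. With the 4 libraries of few genes left out, these counts were 0, 3 and 1 in the same order. T cell markers summed to at most 0.634 CPM in iSCs, 13.004 in dSCs and 15.3 in bSCs of days 4 to 10. Fibroblast markers summed to 20533 to 26900.3 CPM in iSCs, 17961 to 40950.0 CPM in later dSCs and 12589.9 to 44141 CPM in bSCs. Of the 6 fibroblast markers 1 was called higher than in iSCs in later dSCs, and in bSCs 1 was higher and 1 lower. With the 4 libraries of few genes left out, 0 were called in dSCs, and in bSCs 1 was higher and 1 lower. The part of endothelial, T cell and fibroblast RNA in the values of single nerves was not tested. The part of macrophage RNA in the class II differences of single nerves was not tested.

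The class I genes of single nerves gave 1 call. Psmb8 was at 386, 263, 99.6, 116 and 125 CPM in iSCs and at 42.5 to 151 CPM (median 90.8, n = 12) in dSCs of days 4 to 10, where 9 of the 12 libraries lay below every iSC library. It fell by 1.19 on the log2 scale in the edgeR test (SE 0.35, adjusted p = 0.0413). Its 2 highest iSC values were those of replicates 0 and 1, the iSC libraries with few genes, and the other 2 libraries of few genes held 442.4 CPM at day 1 and 237.2 CPM at day 2. Without these 4 the log2 difference was -0.34 (SE 0.36, adjusted p = 0.765) in the same test, and Psmb8 lost its call in 13 of the 17 fits that left out a single library. In bSCs Psmb8 was at 35.4 to 214 CPM (median 128, n = 12), a difference of -0.71 (SE 0.36, adjusted p = 0.228) with all libraries and 0.13 without the 4.

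H2-K1, H2-D1, B2m and Tap1 passed in no comparison with single-nerve iSCs. H2-K1 was at 539, 458, 1330.3, 527 and 673 CPM in iSCs, 346 to 1221 CPM (median 554, n = 12) in dSCs of days 4 to 10 and 169 to 1059 CPM (median 565, n = 12) in bSCs. H2-D1 was at 498, 445, 1018, 781 and 1027 CPM in iSCs, 376 to 998 CPM (median 723, n = 12) in dSCs and 324 to 1552 CPM (median 786, n = 12) in bSCs. For H2-K1, 0 libraries lay above every iSC library and 3 of 12 dSCs and 3 of 12 bSCs below. For H2-D1, 4 of 12 bSCs lay above every iSC library and 2 below, as against 0 and 1 of 12 dSCs. B2m was at 732, 2491, 625.17, 1253 and 1857 CPM in iSCs, 1526 to 2834 CPM (median 1892, n = 6) in dSCs of days 1 and 2, 463 to 2063 CPM (median 1181, n = 12) in later dSCs and 657 to 3409.6 CPM (median 1775, n = 12) in bSCs. Tap1 was at 67.4, 28.5, 78.6, 48.9 and 31.6 CPM in iSCs, 28.5 to 127 CPM (median 57.2, n = 12) in dSCs and 22.6 to 96.9 CPM (median 44.6, n = 12) in bSCs. For these 4 genes the log2 differences from iSCs lay between -0.31 (H2-K1 in bSCs) and 0.52 (Tap1 at days 1 and 2), with SEs of 0.30 to 0.42 and adjusted p of 0.601 or more in edgeR's quasi-likelihood test.

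**Figure D4:**
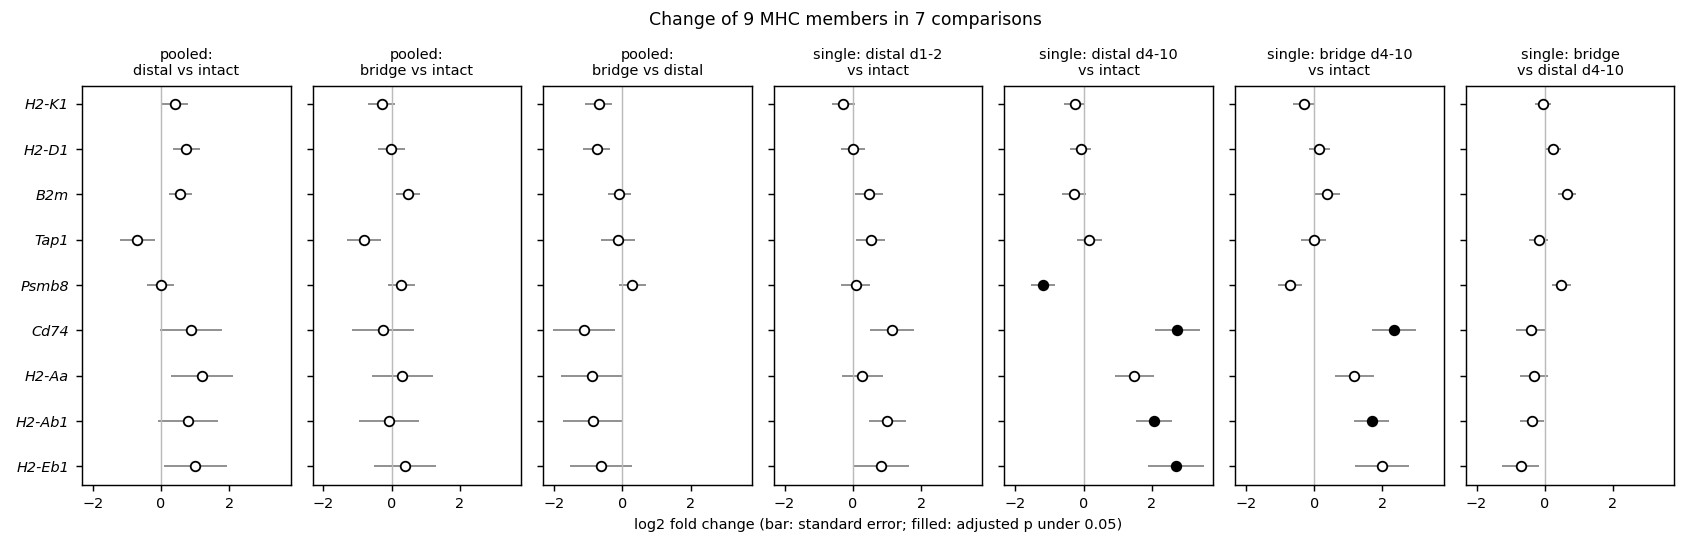
Log2 fold change (x axis, bar of 1 standard error) of 9 members (y axis) in 7 comparisons, with filled points for an adjusted p under 0.05 by edgeR. Ciita was left out because 4 of the 5 single-nerve iSC libraries had no count. Filled points are seen for Cd74, H2-Ab1 and H2-Eb1 (higher) and Psmb8 (lower) in dSCs of days 4 to 10, and for Cd74 and H2-Ab1 in bSCs of days 4 to 10.

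Tap1 and Psmb8 had the smallest p-values of the 10 members in the test among distal days. Tap1 was at 30.5, 149 and 216 CPM at day 1, 45.3, 34.3 and 42.4 at day 2, 55.8, 100.03 and 127 at day 4, 65.1, 111 and 58.5 at day 6, 42.1, 32.5 and 28.6 at day 8 and 66.7, 28.5 and 30.2 at day 10. Psmb8 was at 139.99, 442 and 299 CPM at day 1, 237, 102 and 105 at day 2, 78.8, 151 and 93.8 at day 4, 87.9, 78.5 and 103 at day 6, 57.9, 98.0 and 42.5 at day 8 and 54.4, 96.4 and 110.3 at day 10. For both genes the day 1 values were the widest apart, and the median was lowest at day 10 for Tap1 and at day 8 for Psmb8. A test of any difference among the 6 distal days called 0 of 10 members with edgeR's quasi-likelihood F test, and 0.0644% of all genes. Tap1 had an unadjusted p of 0.0068 and Psmb8 one of 0.00562, both with an adjusted p of 0.531. DESeq2's likelihood ratio test called these 2 members (adjusted p of 0.0366 for Tap1 and 0.045 for Psmb8). With the 4 libraries of few genes left out, 2 of which are dSCs of days 1 and 2, edgeR called 0 of 10 members and the adjusted p was 0.804 for Tap1 and 0.883 for Psmb8. Cd74, whose median was lowest at day 1 and highest at day 6, had an adjusted p of 0.885 in the edgeR test.

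The time course gave bSCs and dSCs of the same nerve for most bridges, which allowed them to be compared within an animal. Over days 4 to 10, 0 of 10 members were called between bSCs and dSCs by edgeR, where 0% of genes were called higher and 0.103% lower, and 0 by DESeq2. B2m was the 1 member with an unadjusted p under 0.05, at a log2 difference of 0.65 (SE 0.27, adjusted p = 0.428) in edgeR's quasi-likelihood test. The animal number of the labels paired 20 of these libraries into 10 animals. For 1 bridge library of day 10 the title and the animal number disagree, so it was left out of these pairs and entered only a fit with 11. Within animals, Psmb8 was higher in the bridge in 8 of 10 and B2m in 7 of 10, with median differences of 0.52 and 0.75 on the log2(CPM + 1) scale. H2-K1, H2-D1 and Tap1 were each higher in the bridge in 6 of 10 animals. The class II genes were higher in the bridge in 4 of 10 animals (Cd74, H2-Ab1 and Ciita) or 5 of 10 (H2-Aa and H2-Eb1), with medians from -0.53 (Cd74) to -0.23 (H2-Aa). At day 6, Cd74 was lower in the bridge in each of 3 animals, at 1489 against 2635 CPM, 1491 against 3031 and 324 against 1033. At day 8 it was lower in 1 animal and higher in 2. Fitted with the animal as a replicate block, the test called 0 of 10 members with 10 pairs and 0 with 11, while genes called numbered 236 and 69 in place of 16. The difference of bSCs from dSCs did not pass a test of change among days for any member (0 of 10 by edgeR, 0 by DESeq2), and 0% of all genes passed it in edgeR.

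**Figure D5:**
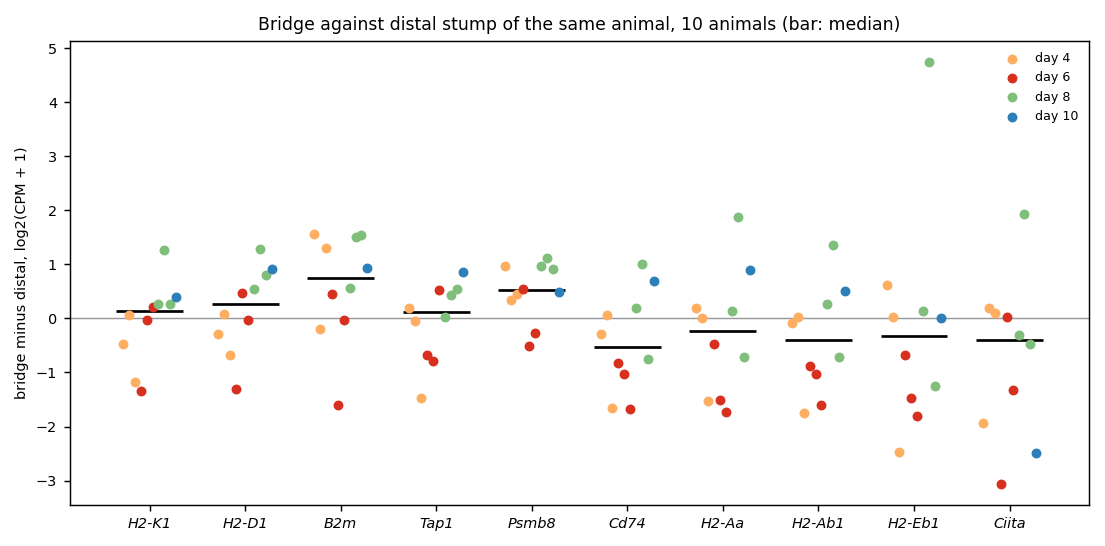
Difference between bSCs and dSCs of the same animal (log2(CPM + 1), y axis) for each member (x axis) in 10 animals, with points for animals, coloured by day, and a bar at the median. B2m and Psmb8 lie above 0 in 7 and 8 of 10 animals, and the class II genes lie on both sides of 0.

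Levels of the class II genes were also set against each other within libraries. Cd74 exceeded H2-Ab1 in all 12 pooled libraries, by a ratio of 1.53 to 2.88, and in 31 of the 35 single-nerve libraries. The 4 with a ratio under 1, as low as 0.0642 in iSC replicate 1, were the 4 libraries with the fewest genes. In that library Cd74 was at 24.4 CPM, H2-Ab1 at 380.0 and H2-Aa at 546.5. H2-Eb1 had a median ratio to H2-Ab1 of 0.400 in pooled libraries and 0.337 in single-nerve libraries. In 3 single-nerve libraries it was under 15 CPM while H2-Ab1 was high: a day 1 dSC library with 4.36 CPM beside 466.6, a day 8 dSC library with 12.1 beside 515.7 and a day 10 bSC library with 9.36 beside 949.9. These ratios, taken between CPM values not divided by length, were not tested.

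The genes whose pattern was most like that of Cd74 included the other class II chains. Over the 12 pooled libraries the highest Spearman correlations with Cd74 were those of H2-Aa (0.972), H2-Eb1 (0.965), Gmfg (0.958) and Shc2 (0.958), and Csf1r, the receptor for macrophage colony-stimulating factor, had 0.930. Over the 35 single-nerve libraries they were H2-Ab1 (0.915), H2-Aa (0.81), H2-Eb1 (0.789) and Ctsa (0.746), a lysosomal protective protein, with Apoe at 0.716 and Csf1r at 0.715. For B2m the closest genes were Cmtm7 (0.965) in pooled libraries and Ifitm3 (0.841), Tmsb4x (0.82) and Pomp (0.817), the proteasome maturation protein, in single-nerve libraries. Between members of the 2 classes, Cd74 and B2m correlated at 0.755 in pooled and 0.0952 in single-nerve libraries, and Cd74 and H2-K1 at 0.916 and 0.18. Within class I, B2m and Psmb8 correlated at 0.685 and 0.696. These values share libraries, depth and regional differences, and describe them with no test.

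Other genes of the presentation pathway were counted from 6 lists: other class I heavy chains (8 tested in pooled and 11 in single nerves, of 23), peptide supply and loading for class I (11 tested of 11), class II chains, loading and processing (7 and 8 tested of 10), regulators of MHC genes (12 of 12), interferon gamma receptor and signalling (5 of 6), and co-stimulatory and co-inhibitory ligands (6 of 7). Their counts stand beside shares of all genes called higher and lower of 2.63% and 2.69% in pooled dSCs, 7.24% and 7.46% in pooled bSCs, 1.84% and 3.49% in single-nerve dSCs and 2.58% and 6.75% in single-nerve bSCs of days 4 to 10, each against iSCs. In class II processing, Ctss, the endosomal protease that trims the invariant chain, rose in every single-nerve set against iSCs. Its log2 difference was 4.05 (SE 0.60, adjusted p = 5.35e-04) at days 1 and 2, 4.13 (SE 0.58, adjusted p = 5.76e-05) in dSCs and 4.196 (SE 0.58, adjusted p = 2.93e-05) in bSCs of days 4 to 10 by edgeR's quasi-likelihood test. It was 4.32 (SE 0.77, adjusted p = 0.0118), 4.09 (SE 0.72, adjusted p = 0.00247) and 4.14 (SE 0.72, adjusted p = 0.00124) in the same test without the 4 libraries of few genes. Lgmn, the endosomal protease legumain, also rose at days 4 to 10, by 1.78 (SE 0.45, adjusted p = 0.0178) in dSCs and 1.94 (SE 0.45, adjusted p = 0.00744) in bSCs in the edgeR test. Without those 4 libraries the adjusted p of Lgmn was 0.0776 in dSCs and 0.0345 in bSCs. They were the 2 genes called of the 8 tested from this list in dSCs, and again in bSCs, and both are also expressed by macrophages. Lgmn lost its call in dSCs without iSC replicate 0 or 1, and without iSC replicate 3 its difference there was 2.39.

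In the pooled nerves, Lgmn rose in dSCs by 2.29 (SE 0.48, adjusted p = 0.0159) and in bSCs by 1.48 (SE 0.47, adjusted p = 0.0486) against iSCs in edgeR's quasi-likelihood test. When each of 8 libraries was left out in turn the call was lost in 4 fits for dSCs and 6 for bSCs, and the highest differences, 2.89 and 2.09, were those without iSC replicate 5. H2-DMa and H2-DMb1, which encode the chains of the chaperone that exchanges peptides on class II, fell in bSCs by the same test. H2-DMa stood at 49.0 ± 41.0 CPM in bSCs against 154 ± 15.9 CPM in iSCs (mean ± SD, n = 4 each), and H2-DMb1 at 30.2 ± 28.8 against 117 ± 23.2 CPM. Their adjusted p was 0.0495 and 0.0315 with all libraries, and 0.0942 and 0.0643 in edgeR without iSC replicate 5, so both calls were lost, as they were in 7 of the 8 fits that left out 1 library. The remaining fit, without bSC replicate 2, gave -2.40 for H2-DMa and -2.88 for H2-DMb1. Ctss was called higher by edgeR without iSC replicate 5, at 4.95 (SE 0.86, adjusted p = 0.00445) in dSCs and 4.42 (SE 0.83, adjusted p = 0.00429) in bSCs. Ifi30, a lysosomal thiol reductase of class II processing, was then called too, at 1.83 (SE 0.48, adjusted p = 0.0376) in dSCs by edgeR.

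Among the class I lists, Calr, the chaperone calreticulin of the loading complex, rose in 4 of the 5 comparisons with iSCs. Its log2 difference was 1.26 (SE 0.26, adjusted p = 0.0146) in pooled dSCs, 1.16 (SE 0.26, adjusted p = 0.00972) in pooled bSCs, 0.78 (SE 0.22, adjusted p = 0.0366) in single-nerve dSCs and 0.93 (SE 0.22, adjusted p = 0.00942) in single-nerve bSCs of days 4 to 10 by edgeR's quasi-likelihood test. Without the 4 libraries of few genes it lost its call in single-nerve dSCs (adjusted p = 0.106 in edgeR) and kept it in bSCs (0.0366). With 1 library left out at a time it lost its call in 1 of 8 fits for pooled dSCs (without iSC replicate 1), in 5 of 17 for single-nerve dSCs and in 0 for bSCs of either experiment. Tap2, the partner of Tap1 in the transporter, was called lower by edgeR without the 4 libraries, at -1.04 (SE 0.25, adjusted p = 0.0212) in dSCs and -1.35 (SE 0.25, adjusted p = 0.00147) in bSCs. Psme2, a subunit of the proteasome activator PA28, was called higher in pooled bSCs without iSC replicate 5, at 0.89 (SE 0.20, adjusted p = 0.0104) in edgeR. Psmb10, an immunoproteasome subunit like Psmb8, fell in dSCs of days 4 to 10 by edgeR, at -1.57 (SE 0.38, adjusted p = 0.0139) on the log2 scale, and stood at -0.26 (SE 0.35, adjusted p = 0.848) without those libraries, and its call was lost without iSC replicate 0 or 1. H2-T23, the nonclassical heavy chain Qa-1, fell in bSCs of both experiments, at -1.50 (SE 0.43, adjusted p = 0.0319) in pooled nerves and -1.86 (SE 0.48, adjusted p = 0.0149) in single nerves by edgeR. The pooled value was -0.85 without iSC replicate 5 (adjusted p = 0.111 in edgeR) and lost its call in 5 of 8 such fits, and the single-nerve value kept its call without the 4 libraries (0.0369) and lost it without iSC replicate 3. H2-K2, a class I gene of the same multigene family, had 1256 counts over the 4 pooled iSC libraries, 328 over dSCs and 1 over bSCs, and its values are uncertain, as the counting could split reads within the family. H2-M9, also of a multigene family, was called lower in single-nerve bSCs, at 3.39 ± 6.70 CPM against 14.6 ± 21.5 CPM (mean ± SD, n = 12 and 5), and lost its call in 12 of the 17 fits that left out a library. Pdia3, the disulfide isomerase ERp57 of the loading complex, rose in pooled bSCs by 0.89 (SE 0.25, adjusted p = 0.0317) in edgeR, a call lost in 5 of 8 such fits.

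Of the 12 regulators, 0 were called in pooled dSCs, 1 in pooled bSCs, 1 in single-nerve dSCs of days 4 to 10 and 0 in bSCs of those days. Irf1, an interferon-induced activator of class I transcription, fell in pooled bSCs by edgeR's quasi-likelihood test, at -1.66 (SE 0.37, adjusted p = 0.00858) on the log2 scale. It kept its call without iSC replicate 5, at -1.45 (SE 0.39, adjusted p = 0.0253) in edgeR. Irf8, a factor of myeloid cells, rose in single-nerve dSCs by 2.27 (SE 0.69, adjusted p = 0.0478) in edgeR, and had an adjusted p of 0.111 without the 4 libraries of few genes. It lost its call in 14 of 17 fits that left out 1 library, and without iSC replicate 5 the difference was 3.00. Without pooled iSC replicate 5, Irf8 was also called higher in pooled dSCs, at 3.97 (SE 1.07, adjusted p = 0.0439) in edgeR. Of the interferon gamma list, Jak1 rose by 0.88 (SE 0.23, adjusted p = 0.0463) in pooled dSCs and Ifngr2 by 1.04 (SE 0.25, adjusted p = 0.0123) in pooled bSCs, while Ifngr1 fell in single-nerve bSCs, at -0.90 (SE 0.29, adjusted p = 0.0462), by edgeR. The call of Ifngr1 was lost without the 4 libraries of few genes, at an adjusted p of 0.276 in edgeR, and in 16 of 17 fits without 1 library. That of Jak1 was lost in 6 of 8 such fits. Cd276, the co-inhibitory ligand B7-H3, was the one co-stimulatory or co-inhibitory gene called, and it rose by 2.54 (SE 0.47, adjusted p = 0.00318) in pooled bSCs, 1.85 (SE 0.53, adjusted p = 0.0369) in single-nerve dSCs and 2.79 (SE 0.56, adjusted p = 0.00263) in single-nerve bSCs in the same test. These 3 calls were kept without iSC replicate 5 or the 4 libraries of few genes, while that in single-nerve dSCs was lost in 9 of the 17 fits that left out 1 library. Between bSCs and dSCs, H2-K2 in pooled nerves was the single call of these lists. Of the calls of listed genes in the 3 pooled comparisons, 8 were lost when the fit blocked on the pool number. With a covariate for lanes 5 of them were lost.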

How the data were processed

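RNA of sorted mouse SCs was read by Smart-seq2 in 12 pooled-nerve and 35 single-nerve libraries; the rat libraries were not used here. The deposited values were raw read counts per gene, which the authors made with TopHat2 2.0.11 on mm9 and HTSeq. Lanes of 1 library were summed (8 libraries), 92 ERCC spike-in rows were left out, and 39.15% to 47.11% of uniquely placed reads fell on genes, with 9240883 to 22426128 counts per library.

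Counts were scaled by TMM and filtered by filterByExpr, and each experiment was fitted over all its groups with edgeR 4.0.16 (quasi-likelihood test, two-sided, Benjamini-Hochberg adjustment, threshold 0.05) in R 4.3.3. DESeq2 1.42.0, other scaling, filters, covariates and leaving out each library were alternatives. The fit was tested on simulated data in which 200 genes were changed between bSCs and dSCs. It recovered 35 of them in pooled nerves and 65 in single nerves, with 0 and 3 false calls. The fitted median absolute log2 difference of the changed genes was 2.03 and 2.01. Most changes of that size were thus missed, and 0 members called there does not mean no change. Named genes were the 10 members, up to 3 genes called per pathway list and comparison, and the genes most correlated with Cd74 and B2m. The members and lists were chosen with earlier results of these data known. H2-Ea and Trac were not matched. Some marker genes and their summed levels are not reported here.

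Animal numbers in the labels tie pooled libraries of different regions and most single-nerve bSC libraries to a dSC library. Same-numbered pooled libraries had a mean correlation of deviations from their group means of -0.00393 (10 pairs), against 0.00124 in 38 other pairs. Libraries of the same single nerve had 0.164 (10 pairs, range -0.125 to 0.68), against -0.0708 in 23 other pairs. The main test did not use these pairs, and the replicate blocks did.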

Additional observations from a re-analysis of the deposited data

Results flagged for a closer look

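Among 40 sets of 4 or 5 libraries searched, 10 values stood apart from the rest of their group by the gap to the nearest library. Chance gives about 1 in 20 only for independent sets with a normal spread. These genes vary together and their CPM values are skewed, so that rate does not hold here. Pooled iSC replicate 5 held 5 of them, with 1055.4 CPM of H2-K1, 2843 CPM of Cd74, 667 CPM of H2-Aa, 1319.6 CPM of H2-Ab1 and 493.06 CPM of H2-Eb1. The medians of the other 3 libraries were 336, 93.3, 38.1, 60.8 and 20.04 CPM. Single-nerve iSC replicate 5 stood apart for Cd74 (1011 CPM) and H2-Eb1 (184 CPM), and its group's replicate 3 for H2-K1 (1330.3 CPM). Ciita stood apart in pooled bSC replicate 2 (5.34 CPM) and in single-nerve iSC replicate 4 (0.153 CPM), in groups where most other libraries had no count. Their causes were not tested.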

How the results depend on the processing

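Calls of the class II genes rest on few iSC libraries. Members called ranged, when each library was left out in turn, from 0 to 4 between pooled dSCs and iSCs, 0 to 4 between pooled bSCs and iSCs, 0 to 1 at days 1 and 2, 3 to 5 in dSCs and 1 to 4 in bSCs of days 4 to 10. DESeq2 called 1 at days 1 and 2 and 2 among distal days. For bSCs of days 4 to 10 the count was 0 when the fit held only the groups compared. Without the 4 libraries of fewest genes, a setting chosen after seeing the data, it was 1 in dSCs and 0 in bSCs. The cause was not tested. The replicate block changed no member's call, but the block by pool number removed 8 calls of other pathway genes in pooled nerves.

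Outside the fits that left out 1 library, values that changed sign passed no test before or after. Most were close to 0, but those of Ciita, Cd74 and H2-Ab1 with a lane covariate were not. Without the filter on low counts, log2 differences became 0.024 for Psmb8 in pooled dSCs, 0.0021 for H2-D1 in pooled bSCs, 0.0074 for H2-D1 at days 1 and 2 and 0.0014 for Tap1 in single-nerve bSCs. With only the groups compared they were 0.026 for Psmb8 in pooled dSCs and 0.020 for H2-D1 at days 1 and 2. With a lane covariate they were 0.11 (Psmb8) and 0.84 (Ciita) in pooled dSCs, and 0.18 (H2-D1), 1.28 (Cd74) and 1.21 (H2-Ab1) in pooled bSCs. With the replicate block by pool number they were 0.0071 (H2-D1), 0.47 (Cd74) and 0.26 (H2-Ab1) in pooled bSCs and 0.029 for Tap1 between pooled bSCs and dSCs, and with the block by animal 0.079 for Tap1 between single-nerve bSCs and dSCs. Without the 4 libraries they were -0.14 (H2-D1) and 0.13 (Psmb8) in single-nerve bSCs.

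Leaving out 1 library at a time gave the following ranges where a sign changed. In pooled dSCs against iSCs these were -0.96 to 0.043 for Tap1, -0.20 to 0.44 for Psmb8 and -1.15 to 1.33 for Ciita. In pooled bSCs against iSCs they were -0.52 to 0.37 for H2-K1, -0.25 to 0.40 for H2-D1, -0.60 to 2.07 for Cd74, -0.030 to 2.80 for H2-Aa and -0.47 to 2.31 for H2-Ab1, the highest values of these 3 class II genes being those without iSC replicate 5, where they passed the test. Between pooled bSCs and dSCs they were -0.29 to 0.065 for B2m and -0.36 to 0.14 for Tap1. At days 1 and 2 they were -0.48 to 0.11 for H2-K1, -0.27 to 0.19 for H2-D1 and -0.15 to 0.47 for Psmb8. In dSCs of days 4 to 10 they were -0.33 to 0.15 for H2-K1, -0.18 to 0.091 for H2-D1 and -0.42 to 0.095 for B2m. In bSCs of those days they were -0.42 to 0.072 for H2-K1, -0.036 to 0.30 for H2-D1 and -0.14 to 0.22 for Tap1, and between single-nerve bSCs and dSCs -0.20 to 0.0033 for H2-K1.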
